A study of Homo sapiens with 6 samples.

Results

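The immediate early genes FOS, FOSB, FOSL1, FOSL2, JUN, JUNB, JUND, EGR1, IER2 and IER3 were described in Hep G2 cells with and without EFTUD2 overexpression. They are 10 of the 23524 genes in the FPKM table, taken by gene name, and all 10 were found in it under the Entrez number of that gene. Immediate early genes in the strict sense are transcribed within minutes of a growth factor, serum or stress signal. They need no new protein synthesis, because the factors that switch them on already sit at their promoters. Not all of the 10 keep to this course. FOSL2, for example, follows late after induction, and JUND is expressed steadily in resting cells. FOS and JUN proteins pair through leucine zippers to form AP-1, which binds the TGACTCA element and drives genes of growth, invasion and wound repair. EGR1 is a zinc finger factor induced through ERK and the serum response factor, IER2 is a nuclear protein of the same early wave, and IER3 is a short-lived regulator of survival and ERK signaling. In liver, JUN and FOS are known for their rapid induction after partial hepatectomy.

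Hep G2 is an established human liver tumor line, which the study counts among lines of hepatocellular carcinoma. Control cells (3 libraries, replicates 1 to 3) carried an empty vector, and EFTUD2 cells (3 libraries, replicates 1 to 3) carried a vector that expresses EFTUD2, a GTPase of the U5 spliceosome. The study describes stable lines made with lentivirus and selected in puromycin, and how many separate infections or clones stand behind each group is not given in the sources used here. The labels do not say whether replicates came from separate cultures, and p-values measure only the spread between these libraries, which may be technical. Sets of 3 values are given in the order of replicates 1 to 3. Values are FPKM, fragments scaled by the authors to transcript length and library size, so levels can be compared between genes, but the depth behind them is unknown.

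EFTUD2 itself measured 41.14, 54.35 and 46.34 FPKM in control libraries and 106.62, 102.9 and 109.48 FPKM in EFTUD2 libraries, as labelled (log2 difference 1.16, standard error 0.12, adjusted p = 0.13 from limma), and reads of the vector and of the cells' own gene cannot be told apart. All 12 hepatocyte markers listed, among them ALB and HNF4A, had a control mean of at least 1 FPKM, and their summed level ran from 10623 to 16018 FPKM in the controls and from 13591 to 19916 FPKM in the EFTUD2 libraries. EFTUD2 replicate 3 and control replicate 1 stood apart from the other libraries of their groups. In a fit that weights libraries by how closely they follow their group, EFTUD2 replicate 3 received a weight of 0.12 and control replicate 1 a weight of 0.48, against 1.02 to 4.11 for the other 4. Over the 17222 genes tested, the deviations of these 2 libraries from their group means correlated at 0.38, a description across genes of the same libraries. Most of the genes described here were high in exactly these 2 libraries, so the comparisons are given with and without them.

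The genes lie on 7 chromosomes. By RefSeq coordinates on GRCh38.p14, 4 of the 10 are on chromosome 19, namely JUNB (chr19:12791486-12793315), IER2 (chr19:13150411-13154911), JUND (chr19:18279694-18281622) and FOSB (chr19:45467996-45475179). The others are JUN (chr1:58780791-58784047), FOSL2 (chr2:28392858-28417317), EGR1 (chr5:138465479-138469303), IER3 (chr6:30743199-30744547), FOSL1 (chr11:65892049-65900545) and FOS (chr14:75278828-75282230).

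For 8 of the 10 genes RefSeq promoter windows were at hand (GRCh38.p14, 250 bases before to 50 after the transcription start), and FOSL1 and IER3 were not among them. Stretches are shown for EGR1, JUN and JUND, which hold a CArG box or a full TGACNTCA element, and for the close relatives FOS and FOSB, with matched letters in capitals: the CArG box bound by serum response factor in EGR1, TGACNTCA elements of the AP-1 and CREB kind in JUN and JUND, and TGACG and TATAAA in FOS and FOSB. Each runs 5′ to 3′ on the strand of the gene, and positions count back from -1, the base before the start.
EGR1: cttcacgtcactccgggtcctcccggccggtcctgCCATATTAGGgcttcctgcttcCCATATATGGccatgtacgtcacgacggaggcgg
JUN: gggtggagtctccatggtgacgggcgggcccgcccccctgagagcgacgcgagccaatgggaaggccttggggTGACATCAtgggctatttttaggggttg
JUND: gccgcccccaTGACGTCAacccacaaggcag
FOS: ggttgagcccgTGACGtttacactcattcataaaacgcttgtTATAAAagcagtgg
FOSB: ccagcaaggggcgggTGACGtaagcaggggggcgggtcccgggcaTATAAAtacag
The stretches lie at chr5:138465339-138465429 (plus strand, EGR1), chr1:58784087-58784187 (minus strand, JUN), chr19:18281802-18281832 (minus strand, JUND), chr14:75278753-75278808 (plus strand, FOS) and chr19:45467921-45467976 (plus strand, FOSB).

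The CArG box was found in 1 of the 8 windows, that of EGR1, where it occurs at -105 to -96 and again at -83 to -74. Among all 35116 RefSeq promoter windows of the same length, 1.29% held it on either strand. TGACNTCA, searched on both strands, was in 2 of the 8 windows (7.72% of all), as TGACATCA at -67 to -60 of JUN and as TGACGTCA at -200 to -193 of JUND. The shorter TGACG, which lies within TGACGTCA, was in 8 of the 8 windows on either strand (24.6% of all). TATAAA on the strand of the gene was in 3 of the 8, those of FOS, FOSB and JUNB (7.33% of all), and TGACTCA was in 1, that of FOSL2, just past the start (4.95% of all). These matches are letters in a window, not measured binding. Elements more than 250 bases before the start were not searched, so a gene without a match may hold one further away.

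In GENCODE release 29, JUN, JUNB, JUND and IER2 have 1 exon in their principal transcript, EGR1 and IER3 have 2, and FOS, FOSB, FOSL1 and FOSL2 have 4. Over 19659 coding genes, 5.96% have 1 exon and the median is 8. Messages of this class are known to be short-lived through AU-rich elements, and the element TTATTTATT was in the 3′ UTR of FOS and FOSL2, 2 of the 10, against 8.88% of the 11185 coding genes with a 3′ UTR of 500 to 4864 bases, the range of the 10 genes. IER3 held ATTTA 8.14 times and FOS 6.20 times per kilobase of 3′ UTR, whereas IER2 held it 0 times. The median over those 11185 genes was 1.8 per kilobase, and 5 of the 10 genes lay above it.

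Across the 3 controls, mean levels fell in the order JUND (79.0 FPKM), JUN (41.5 FPKM), IER2 (26.3 FPKM), IER3 (16.5 FPKM), FOSL1 (15.2 FPKM), JUNB (14.9 FPKM), FOSL2 (10.9 FPKM), EGR1 (10.8 FPKM), FOS (1.54 FPKM) and FOSB (1.23 FPKM). Neighbors in this order overlapped in their range over the 3 controls, except EGR1, which was above 7 FPKM in each control, and FOS, which stayed under 3 FPKM. These Hep G2 cells thus carried much more JUND and JUN message than FOS or FOSB message.

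To ask how these genes differ with EFTUD2 overexpression, the 17222 genes whose mean over the libraries reached 0.1 FPKM were compared as log2(FPKM + 1) with limma, a linear model that shares its estimate of the spread across genes, with Benjamini-Hochberg adjustment. A fold change on this scale understates the change of low genes. All 10 genes passed the filter. None of them had an adjusted p under 0.05 with all 6 libraries in limma, where 0 of all genes tested (0%) had, and 2 of the 10, FOSL1 and JUNB, had an unadjusted p under 0.05, against 12.3% of all genes tested. The groups did not overlap for the same 2 genes, 1 higher and 1 lower with EFTUD2, against 27.3% of all genes tested. Of all genes, 7.92% were apart and higher and 19.4% apart and lower with EFTUD2. After median of ratios scaling, which turns the lean of all genes, 13.3% were higher and 11.1% lower. Among 10 genes, a count of 2 is close to the share of all genes and is not read as a result about them. In bulk RNA, fewer cells that express a gene and less RNA per cell cannot be told apart. For a single gene, the exact two-sided permutation test of 3 against 3 libraries cannot give a p below 0.1.

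FOSL1 encodes FRA-1, a FOS protein that lacks the strong activation domain of FOS and is known from invasive tumors. It measured 15.16, 18.46 and 12.1 FPKM in control libraries and 7.43, 8.27 and 5.96 FPKM in EFTUD2 libraries. Every EFTUD2 library lay below every control, and EFTUD2 replicate 3, the highest EFTUD2 library for 8 of the 10 genes, was the lowest for this gene. The mean went from 15.2 ± 3.18 to 7.22 ± 1.17 FPKM (SD, n = 3 each), a log2 difference of -0.97 (standard error 0.19, adjusted p = 0.27 from limma, exact permutation p = 0.1). With any 1 library left out, it lay between -1.12 and -0.83, and without control replicate 1 and EFTUD2 replicate 3 together it was -0.85 (standard error 0.20). With libraries weighted, its adjusted p was 0.022 in limma, where 7.87% of all genes were called.

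JUNB, a JUN protein that often opposes JUN in growth control, showed the opposite pattern. It measured 20.25, 11.38 and 12.97 FPKM in control libraries and 21.36, 28.99 and 27.23 FPKM in EFTUD2 libraries. The groups did not overlap, although control replicate 1 came close to EFTUD2 replicate 1. The mean went from 14.9 ± 4.73 to 25.9 ± 4.0 FPKM (SD, n = 3 each), a log2 difference of 0.79 (standard error 0.23, adjusted p = 0.40 from limma, exact permutation p = 0.1). Leaving out 1 library at a time gave log2 differences of 0.63 to 1.02, leaving out control replicate 1 and EFTUD2 replicate 3 gave 0.98 (standard error 0.16), and the weighted fit gave an adjusted p of 0.028 in limma. JUNB overlaps HOOK2 on the opposite strand, and whether counting used strand is not given in the sources used here. HOOK2 measured 6.67, 6.42 and 7.35 FPKM in control libraries and 6.83, 7.73 and 3.59 FPKM in EFTUD2 libraries.

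FOSL2 encodes FRA-2, a FOS protein that follows FOS late after induction. It measured 15.94, 6.79 and 9.99 FPKM in control libraries and 13.11, 15.77 and 25.18 FPKM in EFTUD2 libraries. Only control replicate 1 reached into the range of the EFTUD2 group. The log2 difference was 0.70 (standard error 0.34, adjusted p = 0.41 from limma, exact permutation p = 0.3), and it was 0.73 (standard error 0.19) without control replicate 1 and EFTUD2 replicate 3, 0.44 without EFTUD2 replicate 3, 0.43 without control replicate 2, and 0.99 without control replicate 1. FOS, the inducible founder of the family, was low in every library, measuring 2.86, 0.63 and 1.14 FPKM in control libraries and 1.74, 2.01 and 4.63 FPKM in EFTUD2 libraries. Here too control replicate 1 was above EFTUD2 replicates 1 and 2, while the other controls were below every EFTUD2 library. Its log2 difference was 0.60 (standard error 0.39, adjusted p = 0.48 from limma), and 0.62 (standard error 0.16) without control replicate 1 and EFTUD2 replicate 3. It was 0.27 without EFTUD2 replicate 3 alone, 0.32 without control replicate 2, 0.94 without control replicate 1, and 0.93 with a pseudocount of 0.1.

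**Figure D1:**
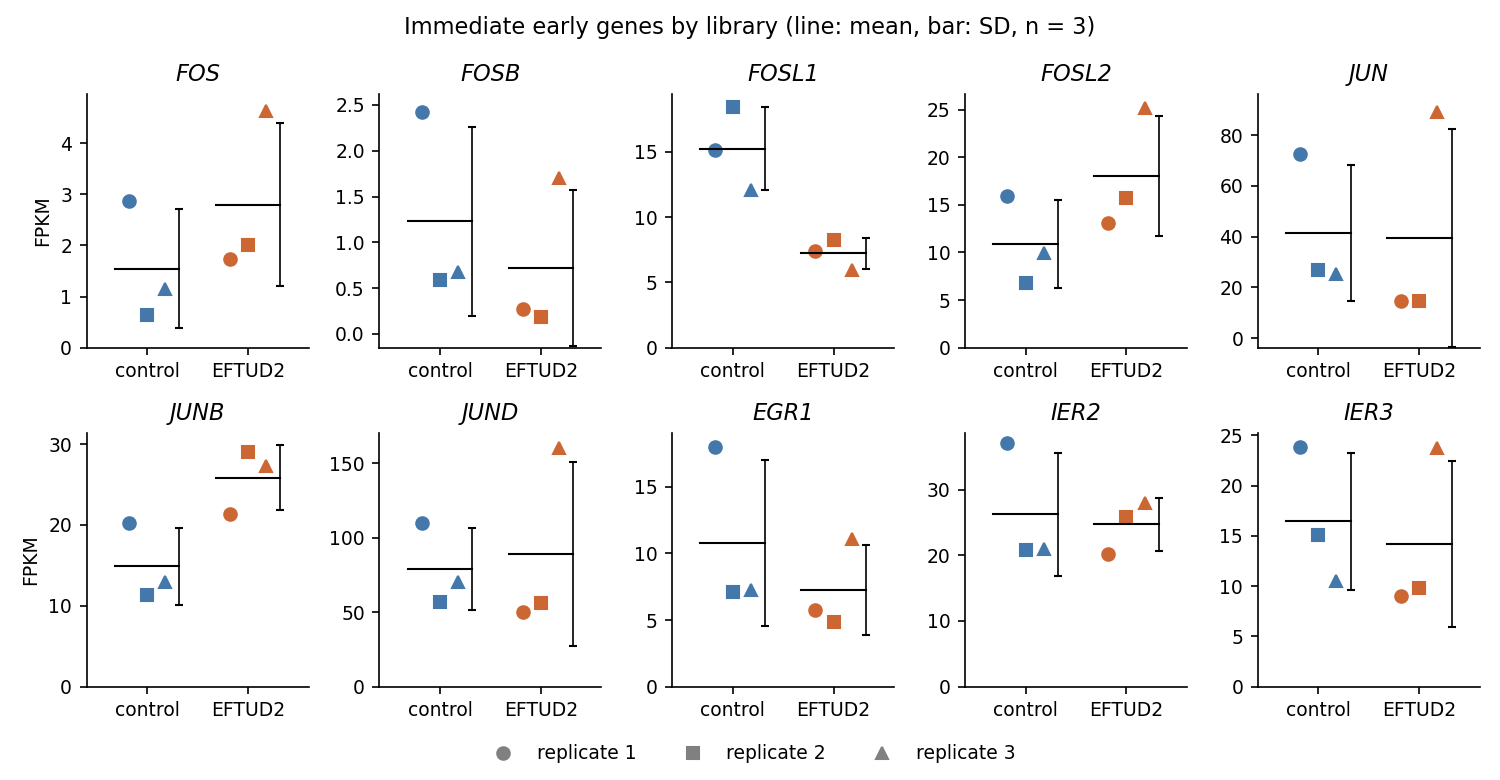
FPKM (vertical axis, linear) of each gene in the 3 control (blue) and 3 EFTUD2 (orange) libraries, with circles, squares and triangles for replicates 1, 2 and 3, the mean as a line and the SD as a bar (n = 3). Groups are apart for FOSL1 and JUNB, and control replicate 1 and EFTUD2 replicate 3 are the highest of their groups for 8 of the 10 genes.

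JUN, the classical partner of FOS, varied most of the 10 genes, with an SD of 1.08 on the log2(FPKM + 1) scale over the 6 libraries. It measured 72.42, 26.82 and 25.34 FPKM in control libraries and 14.59, 14.82 and 88.99 FPKM in EFTUD2 libraries. EFTUD2 replicates 1 and 2 were the lowest of all libraries and EFTUD2 replicate 3 was the highest. The log2 difference of -0.43 had a standard error of 0.75 (adjusted p = 0.79 from limma). Without EFTUD2 replicate 3 it was -1.27 (standard error 0.44, adjusted p = 0.23 from limma), without control replicate 1 it was 0.05, and without both it was -0.79 (standard error 0.08, adjusted p = 0.061 from limma). In that last fit, chosen after the values were seen, 0.0938% of all genes tested were called. It leaves out the highest JUN library of each group, which by itself lowers the standard error.

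JUND, the JUN protein that is expressed most steadily in resting cells, measured 109.72, 57.05 and 70.11 FPKM in control libraries and 50.29, 55.89 and 159.92 FPKM in EFTUD2 libraries. The group means, 79.0 ± 27.4 and 88.7 ± 61.7 FPKM (SD, n = 3 each), differed by much less than the spread between libraries (log2 difference 0.01, standard error 0.46, adjusted p = 0.99 from limma). Its direction turned without EFTUD2 replicate 3, where the log2 difference was -0.51 (standard error 0.26), and was -0.25 (standard error 0.12) without control replicate 1 as well. EFTUD2 replicate 3 held 3.01 times the mean JUND level of the other EFTUD2 libraries, and 6.05 times their mean JUN level.

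EGR1 measured 17.94, 7.08 and 7.24 FPKM in control libraries and 5.77, 4.88 and 11.09 FPKM in EFTUD2 libraries. EFTUD2 replicates 1 and 2 lay below every control, and EFTUD2 replicate 3 lay between control replicate 1 and the others. The log2 difference was -0.46 (standard error 0.41, adjusted p = 0.58 from limma) with all libraries and -0.37 (standard error 0.10) without control replicate 1 and EFTUD2 replicate 3, but -0.78 without EFTUD2 replicate 3 alone and -0.0583 without control replicate 1 alone. FOSB, a FOS protein otherwise known for its lasting splice form in neurons, followed the same outline at a low level, with 2.42, 0.59 and 0.68 FPKM in the controls and 0.27, 0.18 and 1.70 FPKM in the EFTUD2 libraries. Its log2 difference was -0.39 (standard error 0.41, adjusted p = 0.64 from limma), and -0.42 (standard error 0.09) without these 2 libraries. It was -0.77 without EFTUD2 replicate 3 alone, -0.0366 without control replicate 1 alone, and -0.95 with a pseudocount of 0.1 in place of 1. In GENCODE release 29, but not by the RefSeq coordinates, ERCC1 reaches over FOSB on the opposite strand, and ERCC1 ranged from 16.34 to 20.81 FPKM. FOSL2, IER2 and IER3 each overlap an antisense noncoding gene in GENCODE release 29, and FOSL2 also holds a sense intronic one on its own strand.

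IER3 measured 23.86, 15.05 and 10.48 FPKM in control libraries and 9.01, 9.82 and 23.76 FPKM in EFTUD2 libraries. The high library of each group reached the same level, and the other EFTUD2 libraries lay below the other controls. The log2 difference was -0.26 (standard error 0.42, adjusted p = 0.77 from limma), -0.38 (standard error 0.17) without control replicate 1 and EFTUD2 replicate 3, and 0.03 without control replicate 1 alone. IER2 varied least of the 10 genes, with an SD of 0.33 on the log2(FPKM + 1) scale, measuring 37.07, 20.78 and 20.93 FPKM in control libraries and 20.25, 25.89 and 27.94 FPKM in EFTUD2 libraries. The groups overlapped, with a log2 difference of -0.05 (standard error 0.25, adjusted p = 0.93 from limma) that turned to 0.13 without control replicate 1 and EFTUD2 replicate 3.

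For most of these genes, libraries of 1 group differed more than the groups did. Control replicate 1 was the highest control and EFTUD2 replicate 3 the highest EFTUD2 library at the same time for 8 of the 10, all but FOSL1 and JUNB, against 19.8% of all genes tested. In control replicate 1, 9 of the 10 stood at 1.5 times or more the mean of the other controls, where 7.0% of the 12544 genes averaging 1 FPKM or more over the 6 libraries did, and in EFTUD2 replicate 3 this held for 7 of the 10, against 9.37% of 12555 genes. FOSB averaged less than 1 FPKM, and among the 9 other genes the counts were 8 and 6. FOSB had the highest ratio of the 10 in both, 3.81 in control replicate 1 and 7.56 in EFTUD2 replicate 3, with JUN at 2.78 and 6.05, FOS at 3.23 and 2.47, EGR1 at 2.51 and 2.08, JUND at 1.73 and 3.01, and IER3 at 1.87 and 2.52. FOSL1 was at 0.99 and 0.76. EFTUD2 itself was at 0.82 and 1.05.

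**Figure D2:**
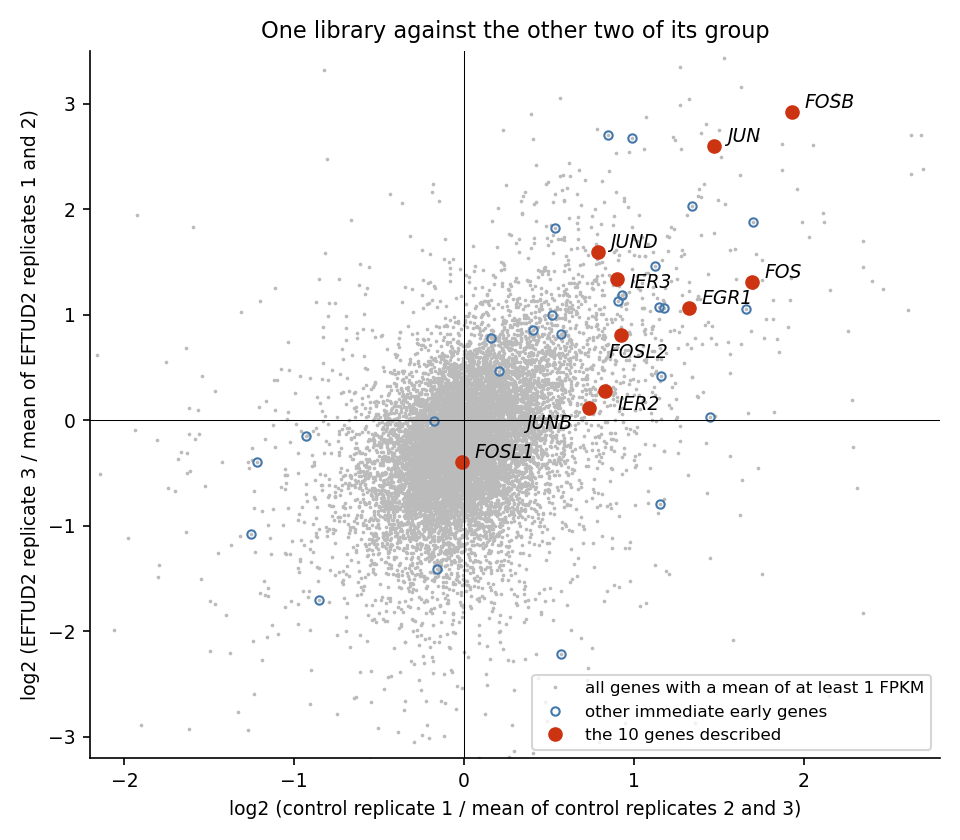
Each point is a gene, with the log2 ratio of control replicate 1 to the mean of the other controls on the horizontal axis and that of EFTUD2 replicate 3 to the mean of the other EFTUD2 libraries on the vertical axis. All but FOSL1 of the 10 genes (red) lie at positive values on both axes, as do many of the 26 other immediate early genes drawn (blue rings). Gray points are the 12468 genes above 0 in every library that averaged 1 FPKM or more, of which 88 lie outside the axes.

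Left without these 2 libraries, control replicates 2 and 3 and EFTUD2 replicates 1 and 2 did not overlap for 9 of the 10 genes, against 54.4% of all genes tested. FOS, FOSL2 and JUNB were higher and FOSB, FOSL1, JUN, JUND, EGR1 and IER3 lower with EFTUD2. None of the 10 had an adjusted p under 0.05 in limma in this comparison of 2 against 2 libraries, and 7 had an unadjusted p under 0.05, against 19.8% of all genes tested. This comparison was chosen after the values were seen. The 2 libraries left out were the highest of their groups for 8 of the 10 genes, against 19.8% of all genes tested. Leaving them out by itself narrows the groups and lowers the standard errors of such genes. The shares over all genes are therefore not a like background for these counts. Leaving out only EFTUD2 replicate 3 set 7 of the 10 apart, against 40.1% of all genes tested. It was the highest EFTUD2 library for 8 of the 10 genes, so the same limit holds.

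**Figure D3:**
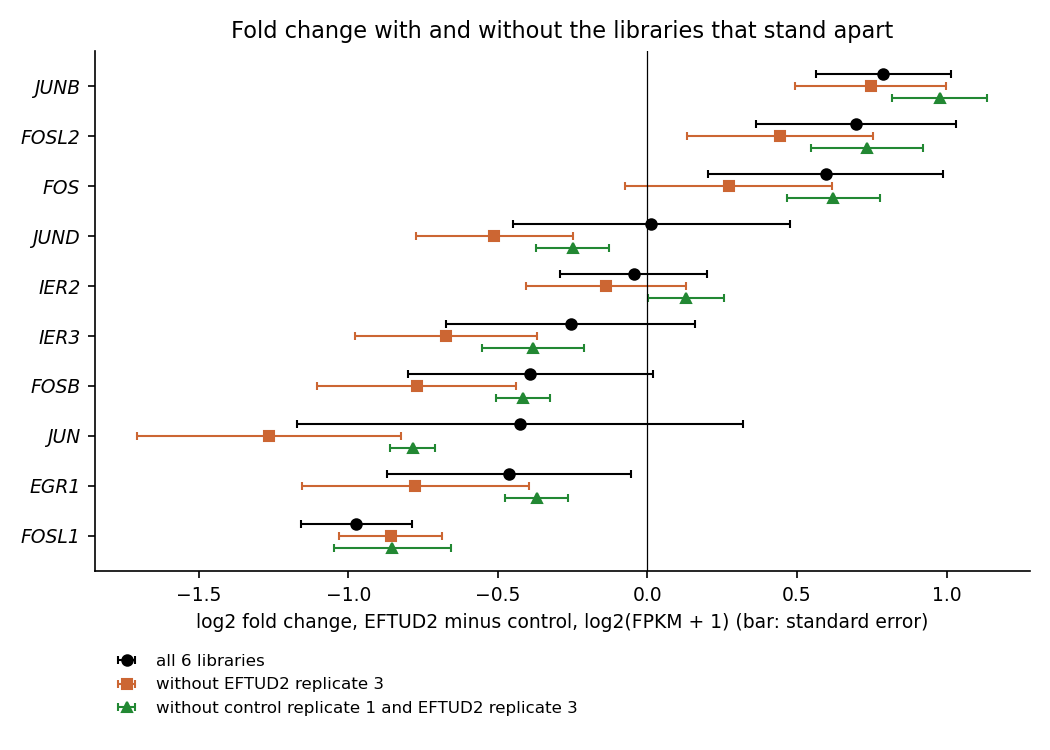
Log2 fold change of each gene (EFTUD2 minus control, on the log2(FPKM + 1) scale, with the standard error from limma as a bar) with all 6 libraries, with EFTUD2 replicate 3 left out, and with control replicate 1 left out as well. JUNB, FOSL2 and FOS stay above 0 and FOSL1, EGR1, JUN, FOSB and IER3 below 0 in these 3 fits, whereas JUND and IER2 change side.

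FOS proteins compete for JUN partners, so the share of each gene in the family is given. FOSL1 made up 41.7%, 69.7% and 50.6% of the summed FPKM of the 4 FOS genes in control replicates 1 to 3 and 32.9%, 31.5% and 15.9% in EFTUD2 replicates 1 to 3. FOSL2 made up 43.8%, 25.7% and 41.8% in the controls and 58.1%, 60.1% and 67.2% in the EFTUD2 libraries. The shares of FOSL1 and FOSL2 did not overlap between the groups, while those of FOS and FOSB did, and the ratio of FOSL1 to FOSL2 went from 0.95, 2.72 and 1.21 in the controls to 0.57, 0.52 and 0.24 in the EFTUD2 libraries. The summed level of the family overlapped between the groups, at 36.4, 26.5 and 23.9 FPKM against 22.6, 26.2 and 37.5 FPKM. FOSL1 and FOSL2 held most of the sum in every library, so their shares depend on each other. The FOSL2 level itself overlapped between the groups. As scores over the genes chosen, these shares were not tested.

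The make-up of the JUN family overlapped between the groups. JUND was the main message in all 6, with 54.2% to 64.7% of the summed JUN, JUNB and JUND level in the controls and 56.1% to 58.3% in the EFTUD2 libraries. JUNB made up 10.01%, 11.9% and 12.0% in the controls, 24.8% and 29.1% in EFTUD2 replicates 1 and 2, and 9.86% in EFTUD2 replicate 3. The ratio of JUN to JUNB was 3.58, 2.36 and 1.95 in the controls, 0.68 and 0.51 in EFTUD2 replicates 1 and 2, and 3.27 in EFTUD2 replicate 3, which lay within the control range. The summed level measured 202.4, 95.3 and 108.4 FPKM in control libraries and 86.2, 99.7 and 276.1 FPKM in EFTUD2 libraries.

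**Figure D4:**
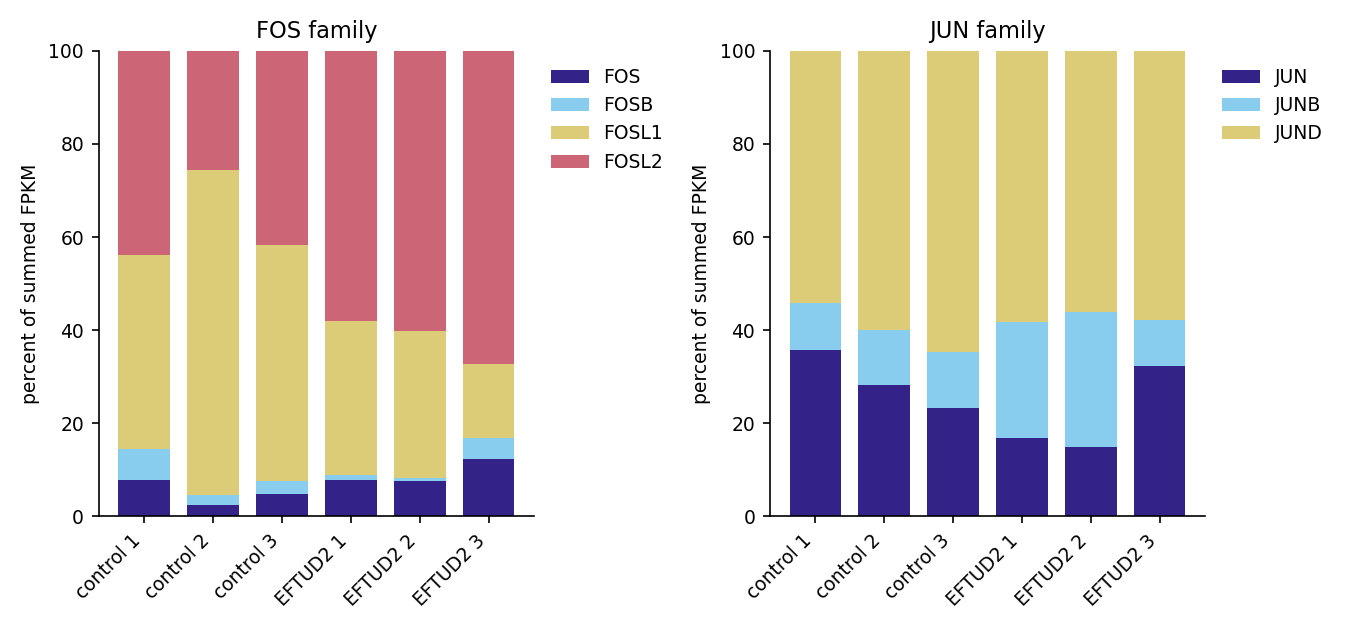
Percent of the summed FPKM of the FOS family (left) and the JUN family (right) held by each gene in each library. The FOSL2 share is above 58% in each EFTUD2 library and below 44% in each control, and the JUNB share of EFTUD2 replicate 3 is at the control level.

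Genes that work with AP-1 and EGR1 were listed as well. Of 12 other bZIP partners, 0 passed the adjusted threshold in limma. The groups were apart for 0 higher and 1 lower gene (7.92% and 19.4% of all genes tested). The median log2 difference was 0.00, against -0.07 over all genes tested. The lower gene was BATF, which pairs with JUN proteins in lymphocytes, at 1.90 to 2.95 FPKM in the controls and 0.82 to 1.75 FPKM in the EFTUD2 libraries (log2 difference -0.60, standard error 0.20, adjusted p = 0.40 from limma). In 6 of the 12, control replicate 1 and EFTUD2 replicate 3 were again the highest of their groups, against 19.8% of all genes tested. ATF3, a stress-induced partner of JUN, measured 25.38, 5.6 and 5.54 FPKM in control libraries and 3.72, 4.36 and 34.32 FPKM in EFTUD2 libraries. It was also among the 5 genes of all tested whose profile lay nearest to that of JUN, by Euclidean distance over the 6 libraries after centering on the control mean (0.76). The nearest was GADD45A, a growth arrest gene, with a distance of 0.38 and levels of 95.46, 37.17 and 35.96 FPKM in the controls and 23.38, 25.52 and 111.93 FPKM in the EFTUD2 libraries. RND1 (0.66) and OVGP1 (0.92) also belonged to these 5, beside a gene listed only under an identifier of the sequencing provider. For JUND, the named genes of its 5 nearest were AMN1, NECTIN4, SLC12A4 and HELZ2, at distances of 0.33 to 0.34.

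EGR2, EGR3 and EGR4, the relatives of EGR1, were near the limit of the table, at 0.34 FPKM or less in every library. NAB1 and NAB2, corepressors that bind EGR proteins, overlapped between the groups, with NAB2 at 7.69 to 10.26 FPKM in the controls and 7.32 to 10.6 FPKM in the EFTUD2 libraries. Of the 6 genes in this list, 0 passed the adjusted threshold in limma. Lower in each EFTUD2 library were 3 (EGR3, EGR4 and the related WT1, all at 0.34 FPKM or less), against 19.4% of all genes tested. Of 14 listed EGR1 targets, 0 passed the threshold, and the groups were apart for 1 higher gene (7.92% of all genes tested). Of these targets, 9 were highest in control replicate 1 and EFTUD2 replicate 3 (19.8% of all genes tested).

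Of 30 other immediate early genes, 29 could be tested and 0 passed the adjusted threshold in limma. The groups were apart for 3 higher and 0 lower genes (7.92% and 19.4% of all genes tested), and the median log2 difference was 0.13. Control replicate 1 and EFTUD2 replicate 3 were the highest of their groups for 19 of the 29, against 19.8% of all genes tested. The genes apart were CCN1, SIK1 and SGK1. CCN1, a matrix protein under YAP and serum response control, measured 11.05, 6.83 and 5.44 FPKM in control libraries and 11.6, 15.12 and 87.13 FPKM in EFTUD2 libraries (log2 difference 1.63, standard error 0.71, adjusted p = 0.40 from limma). EFTUD2 replicate 1 was barely above control replicate 1, and EFTUD2 replicate 3 was far above all others. SIK1, a kinase induced through CREB, was at 3.14, 1.38 and 1.44 FPKM against 5.64, 12.27 and 5.17 FPKM (log2 difference 1.5, standard error 0.35, adjusted p = 0.39 from limma). SGK1, a kinase induced by serum and glucocorticoids, was at 5.44 to 7.96 FPKM in the controls and 9.38 to 20.01 FPKM in the EFTUD2 libraries.

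Upstream of these genes, 16 MAP kinases and 11 SRF, ETS and CREB factors were listed, and 0 of either list passed the adjusted threshold in limma. Groups were apart for 7.92% of all genes tested in the higher and 19.4% in the lower direction, and 19.8% were highest in control replicate 1 and EFTUD2 replicate 3. The MAP kinases were apart for 1 higher and 5 lower genes, with 2 of the 16 highest in both these libraries, and the factors for 0 higher and 6 lower genes, with 0 of the 11. Serum response factor (SRF) was at 23.65 to 26.20 FPKM in the controls and 20.77 to 23.97 FPKM in the EFTUD2 libraries. ELK3, an ETS factor that binds beside SRF, was at 7.85 to 11.6 FPKM and 5.04 to 7.64 FPKM (log2 difference -0.56, standard error 0.20, adjusted p = 0.40 from limma). Of 19 genes that feed back on ERK, 2 were apart, both lower. They were PHLDA1, from 62.33 to 86.34 FPKM in the controls and 37.35 to 47.22 FPKM in the EFTUD2 libraries, and SPRED1, an inhibitor of RAS signaling, from 7.23 to 8.55 FPKM and 4.60 to 6.04 FPKM. DUSP1, the MAP kinase phosphatase of the early wave, was highest in the same 2 libraries as JUN, at 43.93, 10.24 and 13.79 FPKM against 15.58, 19.45 and 107.68 FPKM.

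Of 10 EGFR ligands and receptors, 8 could be tested, and the groups were apart for 1 higher and 3 lower genes (7.92% and 19.4% of all genes tested). Amphiregulin (AREG), an EGFR ligand, measured 22.84, 30.35 and 26.8 FPKM in control libraries and 14.49, 9.31 and 15.33 FPKM in EFTUD2 libraries (log2 difference -1.0, standard error 0.20, adjusted p = 0.31 from limma). EPGN, another ligand, stayed at 1.11 FPKM or less in every library (log2 difference 0.54, standard error 0.22).

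Of 29 genes listed as AP-1 targets, 24 could be tested, 0 passed the adjusted threshold in limma, and the groups were apart for 5 higher and 8 lower genes (7.92% and 19.4% of all genes tested), with a median log2 difference of -0.08. IL11, a cytokine of the IL6 family, measured 9.92, 7.99 and 8.11 FPKM in control libraries and 3.02, 1.91 and 3.49 FPKM in EFTUD2 libraries (log2 difference -1.36, standard error 0.19, adjusted p = 0.21 from limma). S100A2, a calcium-binding protein of epithelia, was at 3.57, 4.41 and 3.71 FPKM against 1.29, 1.08 and 0.54 FPKM (log2 difference -1.33, standard error 0.18, adjusted p = 0.21 from limma). Both were lower in each EFTUD2 library, as FOSL1 was, and a link to FOSL1 was not tested. CD44 and MMP7, a cell surface receptor and a matrix protease, lay in the other direction with unequal levels. MMP7 ranged from 0.09 to 0.23 FPKM in control libraries and measured 1.58, 6.74 and 0.29 FPKM in EFTUD2 libraries, and CD44 had a log2 difference of 1.98 (standard error 0.56, adjusted p = 0.40 from limma), also with its highest level in EFTUD2 replicate 2. IL6 itself was higher as well (log2 difference 1.20, standard error 0.41, adjusted p = 0.40 from limma). It measured 0.01, 0 and 0 FPKM in control libraries and 1.69, 2.97 and 0.15 FPKM in EFTUD2 libraries.

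Markers of other cells and of stress were set beside these values. KRT17 and VIM, of basal epithelium and mesenchyme, were highest in EFTUD2 replicate 2, at 135.1 and 59.6 FPKM, and stood at 9.29 and 2.87 FPKM in EFTUD2 replicate 3, while KRT19 was at 314 to 373 FPKM in the controls and 103 to 163 FPKM in the EFTUD2 libraries. KRT5 was at 0 in all libraries, as were COL1A2 and TYROBP. The summed level of 11 epithelial markers was 436 to 529 FPKM in the controls and 238 to 506 FPKM in the EFTUD2 libraries, that of 13 fibroblast markers 63.9 to 72.5 and 86.9 to 118.1 FPKM, and that of 8 endothelial markers 2.48 to 4.30 and 2.16 to 3.17 FPKM. The fibroblast sum was mostly ACTA2 and SPARC in the controls and in EFTUD2 replicate 3, and both genes overlapped between the groups. In EFTUD2 replicates 1 and 2, VIM, at 23.2 and 59.6 FPKM, made up most of the rest. The sum of 9 macrophage markers, 775 to 2281 and 885 to 1749 FPKM, consisted mostly of LYZ. SERPINA1, a plasma protein of hepatocytes (log2 difference 0.66), and CD14, a monocyte receptor (0.70), were also higher in each EFTUD2 library, whereas COL3A1 was at 0 in each control and ranged from 0.14 to 1.49 FPKM with EFTUD2. In limma 0 genes of these lists passed the adjusted threshold, and the groups were apart for 3 higher and 1 lower of 7 epithelial genes tested, 2 higher of 7 fibroblast genes, 1 higher of 4 macrophage genes, 2 higher and 1 lower of 5 endothelial genes, 2 higher and 1 lower of 12 hepatocyte genes, and 0 of 10 heat shock genes. Over all genes tested, 7.92% were apart and higher and 19.4% apart and lower, and 19.8% were highest in control replicate 1 and EFTUD2 replicate 3. Of the hepatocyte markers, 7 were highest in control replicate 1 and EFTUD2 replicate 3, as JUN was, with AFP at 2499 FPKM in control replicate 1 and 1918 FPKM in EFTUD2 replicate 3, against 745 to 1357 FPKM elsewhere. Of 10 heat shock genes, 1, HSPA1A, was highest in these 2 libraries, and the sum of the list was lowest there, at 1313 FPKM in control replicate 1 and 1120 FPKM in EFTUD2 replicate 3, against 1571 to 2263 FPKM elsewhere. The part of these markers in the results was not tested.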

How the data were processed

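RNA-Seq of poly-A selected RNA was performed by the authors on a BGISEQ-500 sequencer, and they deposited FPKM values per gene for 6 libraries (3 control, 3 EFTUD2) in 1 table, rounded to 2 decimals. The submitters' processing notes name HISAT2, Bowtie2, RSEM, DESeq2 and hg38 without roles. Groups and replicate numbers come from the labels. Gene numbers were matched to RefSeq symbols (18449 of 18762 Entrez numbers). Counts and depth are unknown here: low values shared no common step between libraries (commonest ratio at most 4.59% of low genes), so no counting intervals are given. FPKM are relative to the whole library, and a few very abundant genes can shift all other values.

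Genes averaging 0.1 FPKM or more were fitted as log2(FPKM + 1) with limma 3.58.1 under R 4.3.3 (lmFit, and eBayes with a trend), and called where the p adjusted by Benjamini-Hochberg was under 0.05. Single genes were also compared by exact two-sided permutation tests (scipy 1.17.1), and figures were drawn with matplotlib 3.10.9. The fit was tested on simulated data before use. The genes and all 15 other lists were chosen with earlier results of these data known. From each other list, the text names up to 4 genes with groups apart and the largest log2 differences of at least 0.5, and, by Euclidean distance, the 5 genes nearest to each of the 2 most variable genes. Any other gene of these lists was chosen after its values were seen. Alternatives were other pseudocounts (0.1 and 0.01), filters and scalings, library weights estimated gene by gene, robust empirical Bayes, a replicate block and each library left out. The fit without control replicate 1 and EFTUD2 replicate 3 was added after the data were seen.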

Additional observations from a re-analysis of the deposited data

How the results depend on the processing

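With all 6 libraries, limma called 0 of the 10 genes and 0 of 17222 genes at an adjusted p under 0.05 (2118 at an unadjusted p under 0.05). Library weights gave 1355 genes and 2 of the 10 (FOSL1, log2 difference -0.76, and JUNB, 0.76). Leaving out 1 library at a time gave 0 to 167 genes, with 167 only without EFTUD2 replicate 3, and 0 of the 10 genes throughout. The number of the 10 genes with groups apart ranged from 2 to 7 in these fits. It was 4 without control replicate 1, against 39.5% of all genes tested, and 7 without EFTUD2 replicate 3, against 40.1%. Both libraries were the highest of their groups for 8 of the 10 genes, so shares over all genes are not a like background for such fits. Without both libraries, 16 genes were called and 9 of the 10 were apart, against 54.4% of all genes tested. Apart from these, JUND turned to -0.0296 with a common sum per library, -0.40 with library weights, and -0.25 without both libraries, and ranged from -0.51 to 0.31 with 1 library left out. IER2 turned to 0.0905 with median of ratios scaling, 0.0617 with quantile normalization and 0.13 without both libraries, and ranged from -0.18 to 0.22 with 1 library left out. JUN (-1.27 to 0.0540) and IER3 (-0.67 to 0.0335) turned without control replicate 1. FOS, FOSL1, FOSL2, JUNB and EGR1 kept their direction in all 17 alternatives, and FOSB in the 16 that tested it (it was below the filter of 1 FPKM). With median of ratios scaling, 1199 of 1954 genes at an unadjusted p under 0.05 were higher, against 757 of 2118 as deposited. Causes were not tested.

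The labels do not say whether equal replicate numbers pair the libraries. Deviations from the group means correlated at -0.30, 0.35 and -0.09 for replicates 1, 2 and 3. Control replicate 1 correlated best with EFTUD2 replicate 3, and control replicate 2 with EFTUD2 replicate 2. These correlations cannot decide on pairing, as the deviations within a group depend on each other. With a replicate block, 0 of all genes and 0 of the 10 genes had an adjusted p under 0.05 in limma, and 2027 genes had an unadjusted p under 0.05. Rounding to 2 decimals limits FOSB, FOS and EGR2 to EGR4 most, and the depth behind all values is unknown.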
